A study of Mus musculus with 45 samples.

Results

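Egr2, Gbx2, Irx1, Irx2, Irx3 and Irx5 are 6 transcription factor genes that divide the hindbrain and its border with the midbrain into territories, and their RNA was followed here in neural tube organoids with and without retinoic acid (RA). They were taken from the gene count table by their Ensembl identifiers and are 6 of its 54532 genes. The organoids were grown from R1 cells, a wild-type mouse embryonic stem cell line, embedded in Matrigel in the neural differentiation medium N2B27. They were collected at day 2, before any treatment, and then at 8 h, 18 h and 30 h after that and every 12 h from then until 78 h, either untreated in N2B27 alone or in N2B27 with 250 nM all-trans RA. Each of the 15 conditions had 3 biological replicates, which gave 45 RNA-seq libraries, all labelled with the same line and genotype. The study's methods and the sample titles give the dose and times used here, while the protocol text of the labels gives 250 µM and slightly different late times.

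The hindbrain forms as a row of segments, the rhombomeres, whose identity is set by nested Hox genes and by regulators that act within single segments. RA made by the neighbouring mesoderm is a posteriorising signal for the neural plate, and it acts through nuclear receptors on Hox genes and on some of these regulators. Egr2 (Krox20) is a zinc finger factor of alternate rhombomeres of the mid-hindbrain. Gbx2 is a homeodomain factor of the anterior hindbrain that meets Otx2 at the midbrain-hindbrain border. The Iroquois homeodomain factors lie in 2 gene clusters, one with Irx1, Irx2 and Irx4 and the other with Irx3, Irx5 and Irx6, and they mark broad domains along the neural axis, Irx3 also in the spinal cord.

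On GRCm38, Egr2 (ENSMUSG00000037868) lies at chr10:67535475-67542188 on the plus strand, and Gbx2 (ENSMUSG00000034486) at chr1:89927956-89931179 on the minus strand. Irx1 (chr13:71957921-71963723, minus strand) and Irx2 (chr13:72628820-72634198, plus strand) start 665.1 kb apart, and Irx3 (chr8:91798525-91802067, minus strand) and Irx5 (chr8:92357625-92376286, plus strand) start 555.6 kb apart. A window around the annotated start in RefSeq (GRCm38.p6) was found for 4 of the 6 genes, Egr2, Gbx2, Irx2 and Irx3, and Egr2 had 5 such starts. The 250 bases before the start are given for Egr2 and Gbx2, the pair that was lower with RA than without from 42 h. They are also given for one gene of each Irx cluster, Irx2 and Irx3, whose courses under RA differed in time. Capitals mark matches to a motif on either strand. The motifs searched were the nuclear receptor half-sites AGGTCA and AGTTCA, direct repeats of these half-sites with 5 or 2 bases between them, the HOX-PBX site TGATNNAT, the EGR site GCGNGGGCG, the octamer ATGCAAAT and the serum response element core known as the CArG box, and they were chosen after the sequences had been read.
Egr2, chr10:67537619-67537868, plus strand: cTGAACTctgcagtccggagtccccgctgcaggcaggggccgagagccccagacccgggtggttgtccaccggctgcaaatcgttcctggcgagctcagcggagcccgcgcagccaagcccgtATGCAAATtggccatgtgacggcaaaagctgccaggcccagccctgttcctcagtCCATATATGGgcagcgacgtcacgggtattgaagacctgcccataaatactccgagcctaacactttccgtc
Gbx2, chr1:89931177-89931426, minus strand: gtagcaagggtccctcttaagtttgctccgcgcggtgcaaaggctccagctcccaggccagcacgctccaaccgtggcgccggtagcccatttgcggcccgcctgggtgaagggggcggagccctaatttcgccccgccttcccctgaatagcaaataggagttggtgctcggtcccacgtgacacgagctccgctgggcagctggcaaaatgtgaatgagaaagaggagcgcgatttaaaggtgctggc
Irx2, chr13:72628570-72628819, plus strand: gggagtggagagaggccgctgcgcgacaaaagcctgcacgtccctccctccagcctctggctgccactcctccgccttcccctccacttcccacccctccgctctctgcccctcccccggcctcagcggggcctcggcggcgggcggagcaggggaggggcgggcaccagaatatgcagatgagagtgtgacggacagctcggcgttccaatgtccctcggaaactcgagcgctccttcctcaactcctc
Irx3, chr8:91801655-91801904, minus strand: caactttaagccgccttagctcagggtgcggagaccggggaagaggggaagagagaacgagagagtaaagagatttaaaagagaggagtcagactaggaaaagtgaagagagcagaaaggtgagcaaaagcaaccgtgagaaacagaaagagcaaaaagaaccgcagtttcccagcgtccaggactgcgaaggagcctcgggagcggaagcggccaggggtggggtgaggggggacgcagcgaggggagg
The Egr2 window, chosen among the 5 because its full 300 bases held the most kinds of match, as did a window that starts 1 base later, had from left to right an AGTTCA half-site on the minus strand, the octamer and a CArG box, and after the start, past the bases shown, a TGATNNAT match. Over all 32851 RefSeq windows of 300 bases, AGTTCA was found in 14%, AGGTCA in 16.3%, TGATNNAT in 8.85%, GCGNGGGCG in 5.55%, the octamer in 1.74% and the CArG box in 1.63%. The motifs and the Egr2 window were chosen by content, so these shares do not measure how unusual that window is. A direct repeat of half-sites was found in 0.0396% of windows with either spacing and in no window of these 4 genes. The windows of Gbx2, Irx2 and Irx3 held none of the motifs, which says only that these letters are not in them. All 4 shown windows were rich in G and C, with 60.0% for Egr2, 64.7% for Gbx2, 69.0% for Irx2 and 56.0% for Irx3 over the full 300 bases, against a median of 52.7% over all windows.

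Total counts per library lay between 17298632 and 39688686, so that the 3 counts taken as the smallest detectable amount were worth 0.0756 to 0.173 CPM (counts scaled to library size). That floor covers counting error only. Levels are given in CPM scaled by TMM over all 45 libraries. The library numbers fall in an earlier and a later series. The later one holds all libraries of 66 h and 78 h, day 2 replicate 3, untreated 54 h replicate 3 and RA 30 h replicates 2 and 3. The mean of 4 Y-linked genes was 1.22 to 3.73 CPM in 6 libraries (RA 8 h replicate 3, RA 30 h replicates 1 and 3 and the 3 untreated libraries at 30 h) and 22.6 to 89.9 CPM in the other 39, so that the RA effects on the 6 genes at 8 h and 30 h are also given without the library that differed from the rest of its comparison. Among the other 39 libraries the Y-linked mean was 68.9 to 89.9 CPM at day 2 and 8 h and 49.9 to 60.2 CPM at 18 h. From 42 h on it was 22.6 to 35.45 CPM. Comparisons of later times with day 2 carry this difference as well, and its part in them was not tested. Whether the cells of those 6 libraries differed in their sex chromosomes was not tested. The neural precursor gene Sox2 was at 411 ± 8.61 CPM (SD, n = 3) at day 2, 216 ± 5.10 in untreated and 233 ± 17.1 in RA organoids at 78 h, and Sox1, which follows later in neural differentiation, was at 2.13 ± 0.406 CPM at day 2 and at 166 ± 14.8 and 94.6 ± 2.22 CPM at 78 h. Whole organoids were sequenced, so that fewer cells expressing a gene and less RNA per cell cannot be told apart.

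With RA, Gbx2 was higher at 8 h and 18 h and lower from 42 h on, Irx1 was higher from 18 h on and Irx2 at 18 h and 30 h, Irx3 was higher from 30 h to 54 h, and Egr2 was lower from 42 h on. The arms were compared at each time by the quasi-likelihood test of edgeR. A gene passed where its adjusted p (Benjamini-Hochberg, over all genes tested) was under 0.01 and the size of its log2 fold change was over 1. Egr2 had too few counts to be tested at 8 h and 18 h, which left 40 tests of the 6 genes, of which 13 passed higher with RA and 8 lower. At 8 h 1 of the genes passed higher and none lower, where 1.26% of all genes tested passed higher and 0.537% lower. At 18 h 3 passed higher and none lower, with 8.17% and 2.76% over all genes. At 30 h 3 passed higher and none lower, with 5.98% and 2.48%. At these times 1, 2 and 0 of the genes were lower in edgeR at an unadjusted p under 0.05, and DESeq2 passed none lower. From 42 h on both directions were found. At 42 h 2 passed higher and 2 lower, with 7.49% and 4.96% over all genes, and at 54 h again 2 and 2, with 7.17% and 5.99%. At 66 h 1 passed higher and 2 lower, with 7.06% and 4.44%, and at 78 h 1 and 2, with 7.66% and 4.03%. Over all genes tested, the median difference on the log2 scale lay between -0.01 and 0.04 at every time.

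**Figure D1:**
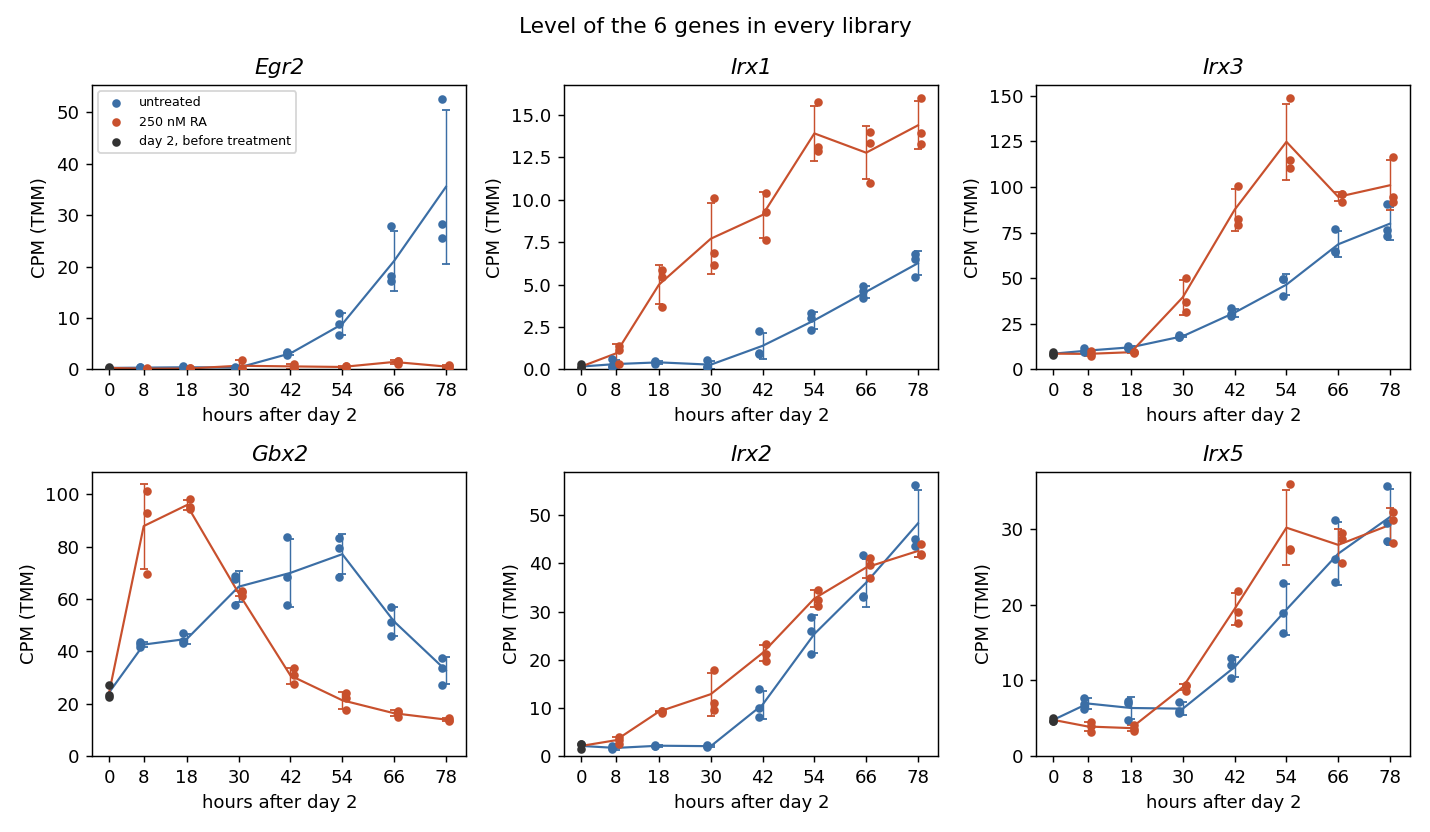
Level of each gene in every library, in CPM after TMM scaling, against hours after day 2. Points are single libraries, lines join condition means and bars are the SD of 3 libraries. Egr2 reached 25.6 to 52.7 CPM without RA at 78 h and 0.314 to 0.782 CPM with RA. Gbx2 peaked at 8 to 18 h with RA and at 54 h without, and the 2 arms overlapped at 66 h and 78 h for Irx2 and Irx5.

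Egr2 was close to the floor until 30 h, and from 42 h on it was lower with RA than without. At day 2 its 3 libraries read 0.294, 0.452 and 0.169 CPM. Untreated organoids still read 0.337, 0.366 and 0.408 CPM at 30 h. At 42 h they read 3.13, 3.45 and 2.86 CPM, against 0.279, 0.384 and 1.15 CPM with RA. The untreated level went on increasing while the RA level stayed low. At 54 h the untreated libraries read 6.76, 8.78 and 11 CPM and the RA libraries 0.192, 0.623 and 0.662 CPM. At 66 h these were 17.3, 18.2 and 27.9 CPM against 1.67, 1.11 and 1.62 CPM. At 78 h they had come to 25.6, 28.3 and 52.7 CPM against 0.626, 0.782 and 0.315 CPM. The groups did not overlap at any of these 4 times, and the highest RA library of any time stayed below the lowest untreated library of 42 h. Egr2 was lower with RA by a log2 fold change of -2.35 ± 0.38 (SE) at 42 h (adjusted p = 4.6e-04), -4.16 ± 0.31 at 54 h (1.5e-06), -3.87 ± 0.22 at 66 h (5.8e-07) and -5.93 ± 0.36 at 78 h (2.2e-07), the last a 61.1-fold difference. Untreated replicate 3 of 78 h was the highest library of all, at 52.7 CPM and 1944 counts, and the other untreated libraries of that time had 714 and 976 counts, so the size of the difference at 78 h varied with the library while its direction did not. At 42 h the size rested on RA replicate 3, the highest RA library of that time, and the log2 fold change without it was -3.22.

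In RA organoids Egr2 nevertheless had a single library above 1 CPM before 42 h. At 30 h the RA libraries read 0, 1.90 and 0.298 CPM, from 0, 60 and 10 counts, and the test gave a log2 fold change of 0.97 ± 1.16 (adjusted p = 0.57). The high value was in replicate 2, the one library of that comparison in the higher range of the Y-linked genes, and without that library Egr2 had too few counts to be tested at 30 h. At 66 h with RA Egr2 was higher than at day 2 by 2.31 ± 0.37 (adjusted p = 8.6e-05), and at 78 h the difference from day 2 was 0.97 ± 0.47 (adjusted p = 0.078). Egr2 is also a regulator of Schwann cells, and a relative of the immediate early gene Egr1, which responds within minutes to growth factors and handling. The neural crest and Schwann list of 9 genes summed to 102 to 103 CPM in the untreated 78 h libraries and to 222 to 245 CPM with RA, and its defining gene Sox10 averaged 0.365 CPM in untreated organoids, where Egr2 was high, and 0.815 CPM with RA. The immediate early list of 10 genes summed to 129 to 135 CPM in the untreated 78 h libraries and to 160 to 169 CPM with RA. Both sums were lower in the arm in which Egr2 was higher, and the part of such cells or responses in the Egr2 result was not tested.

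Gbx2 responded to RA in opposite directions early and late. It was already present at day 2, with 22.6, 23.5 and 27.1 CPM. With RA it read 92.8, 101 and 69.8 CPM at 8 h and 95.1, 98.1 and 94.6 at 18 h, against 41.5, 43.4 and 42.9 and then 47.0, 44.2 and 43.2 without RA. The groups did not overlap at either time, and RA replicate 3 of 8 h was the lowest of the RA libraries. The rise was 1.06 ± 0.13 on the log2 scale at 8 h (adjusted p = 4.1e-03) and 1.11 ± 0.05 at 18 h (3.3e-09). The 8 h call was lost when any library other than RA replicate 3 was left out (log2 fold change 0.95 to 1.08, adjusted p = 0.013 to 0.039), and it held without RA replicate 3, at 1.20 and an adjusted p of 9.4e-10. At 30 h the arms were level, with 62.6, 63.0 and 61.1 CPM with RA and 68.9, 67.5 and 57.8 without, and the log2 fold change was -0.07 ± 0.10 (adjusted p = 0.62). Without RA replicate 2 it was -0.09 (adjusted p = 0.35).

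From 42 h Gbx2 was lower with RA at every time. At 42 h RA organoids held 27.5, 31.2 and 33.7 CPM and untreated ones 57.9, 83.8 and 68.4 CPM. At 54 h, the untreated peak, the values were 17.7, 24.1 and 22.3 CPM against 68.5, 83.4 and 79.6 CPM. Both arms were lower after that. At 66 h they held 15.1, 17.0 and 17.1 CPM against 46.0, 51.4 and 57.0 CPM. At 78 h RA organoids were down to 13.6, 14.4 and 14 CPM and untreated ones to 27.4, 33.6 and 37.4 CPM. The groups stayed apart at all 4 times. The fall was -1.19 ± 0.12 at 42 h (adjusted p = 1.7e-05), -1.87 ± 0.11 at 54 h (2.1e-07), -1.66 ± 0.08 at 66 h (2.1e-07) and -1.23 ± 0.10 at 78 h (2.3e-06). The untreated arm itself went from a mean of 77.2 CPM at 54 h to 32.8 CPM at 78 h, a difference that was not tested. An antisense transcript, D130058E05Rik, shares 946 exonic bases with Gbx2 and had 72 to 766 counts per library. Whether the counting separated strands is not given in the sources used here, so reads of the pair cannot be told apart where they overlap.

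Irx1 rose from near the floor in both arms, earlier with RA and to a higher level. It had 7, 2 and 3 counts at day 2, or 0.294, 0.101 and 0.127 CPM. At 8 h it read 1.13, 1.37 and 0.339 CPM with RA and 0.615, 0.151 and 0.194 CPM without. At 18 h RA libraries had 5.85, 3.70 and 5.46 CPM and untreated ones 0.451, 0.333 and 0.477 CPM. The RA values of 30 h were 6.87, 10.1 and 6.16 CPM, against 0.150, 0.550 and 0.153 CPM. The groups overlapped at 8 h, through RA replicate 3, and were apart at 18 h and 30 h. RA organoids were higher by 3.54 ± 0.26 on the log2 scale at 18 h (adjusted p = 1.8e-07) and by 4.83 ± 0.47 at 30 h (4.6e-04), the last from untreated counts of 4, 9 and 3. Without RA replicate 2 the 30 h value was 4.62 (adjusted p = 7.3e-10), and without untreated replicate 2, which held the 9 counts, it was 5.58.

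In the later organoids Irx1 stayed higher with RA at every time, by a difference that was 2.69 ± 0.28 at 42 h and 1.19 ± 0.11 at 78 h. At 78 h RA organoids read 13.3, 13.9 and 16.0 CPM and untreated ones 5.45, 6.51 and 6.83, with no overlap. The adjusted p was 2.1e-05 at 42 h, 8.3e-07 at 54 h (log2 fold change 2.23), 5.5e-06 at 66 h (1.46) and 8.7e-06 at 78 h. Of the 6 genes, Irx1 was the only one that passed higher with RA at 66 h or 78 h.

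Irx2, the neighbour of Irx1, also came on earlier with RA, but the arms converged. It read 2.48, 1.46 and 2.49 CPM at day 2. RA organoids had 9.06, 9.33 and 9.40 CPM at 18 h and 11.1, 17.9 and 9.62 at 30 h, and untreated organoids 2.08, 2.41 and 2.07 and then 2.25, 2.08 and 1.94. The groups were apart at both times, with RA replicate 2 the highest at 30 h. The rise with RA was 2.10 ± 0.12 at 18 h (adjusted p = 2.9e-08) and 2.61 ± 0.27 at 30 h (6.3e-04), and 2.28 at 30 h without RA replicate 2 (1.1e-09). At 42 h the log2 fold change was 0.99 ± 0.15 (adjusted p = 3.5e-04), just inside the fold threshold. At 54 h it was 0.34 ± 0.10 (adjusted p = 0.014). At 78 h the untreated libraries read 45.1, 43.6 and 56.3 CPM and the RA libraries 44.1, 41.8 and 41.9, which overlapped, and the log2 fold change was -0.18 ± 0.09 (adjusted p = 0.11).

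At 8 h neither gene of this pair passed. Irx1 had a log2 fold change of 1.62 ± 0.67 (adjusted p = 0.16) and Irx2 of 0.96 ± 0.26 (0.059). Both passed when RA replicate 3 was left out, Irx1 at 1.99 (adjusted p = 4.3e-03) and Irx2 at 1.11 (1.4e-03). Over the fits that left out another library or none, and the other alternatives, the adjusted p reached 0.41 for Irx1 and 0.21 for Irx2. Replicate 3 had the lowest value of the 3 RA libraries for both genes, as for Gbx2, and it was the library of this comparison with low Y-linked genes. The part of that difference in the result was not tested beyond leaving the library out.

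Irx3 was not higher with RA until 30 h. At 8 h its log2 fold change was -0.26 ± 0.15 (adjusted p = 0.31), and -0.38 without RA replicate 3 (0.028). Day 2 libraries read 8.40, 7.79 and 9.83 CPM. At 18 h RA organoids had 9.76, 9.28 and 9.40 CPM, below the 13.0, 11.8 and 11.7 CPM of untreated ones, with a log2 fold change of -0.35 ± 0.09 (adjusted p = 3.9e-03) that was inside the fold threshold. At 30 h the order was turned, with 37.1, 50.3 and 31.5 CPM with RA and 18.7, 18.0 and 18.0 without. The difference was 1.10 ± 0.17 (adjusted p = 3.6e-03), and it was lost when any single library other than RA replicate 3 was left out, with log2 fold changes of 0.89 to 1.14. Without RA replicate 2 it was 0.89 with an adjusted p of 1.5e-07, so there it was the size and not the p that fell short. With the earlier library series alone the difference was 1.01, from 1 RA library against 3, which holds no spread among RA libraries.

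Irx3 was highest with RA at 54 h, at 149, 115 and 111 CPM against 40.1, 49.7 and 49.8 CPM without. It was raised by 1.48 ± 0.09 at 42 h (adjusted p = 4.1e-07) and by 1.40 ± 0.12 at 54 h (4.2e-06). After that the arms approached each other, with 91.9, 96.2 and 95.9 CPM with RA and 64.3, 64.7 and 76.9 without at 66 h (log2 fold change 0.45 ± 0.07, adjusted p = 4.0e-04) and 92.0, 94.4 and 117 against 73.1, 76.3 and 90.5 at 78 h (0.33 ± 0.10, 0.014). RA libraries remained above untreated ones at both times, by less than the fold threshold. The antisense transcript Irx3os shares 124 exonic bases with Irx3 and had 6 to 153 counts per library, few beside the 155 to 3879 counts of Irx3.

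Irx5, the neighbour of Irx3, passed in no comparison of the arms in edgeR or DESeq2, although its values had the same order in time (3 higher and 2 lower at an unadjusted p under 0.05 in edgeR). At 8 h and 18 h it was lower with RA in every library, with 3.25, 4.55 and 3.96 CPM against 6.93, 6.20 and 7.72 at 8 h (log2 fold change -0.81 ± 0.18, adjusted p = 0.034, and -0.83 without RA replicate 3, 1.6e-03) and 4.13, 3.62 and 3.38 against 7.04, 7.28 and 4.77 at 18 h (-0.75 ± 0.18, 3.1e-03). At 30 h the log2 fold change was 0.53 ± 0.16 (adjusted p = 0.041), and 0.51 without RA replicate 2 (5.4e-03). At 42 h the libraries read 21.8, 19.0 and 17.5 CPM with RA and 10.3, 13.0 and 12 without (0.71 ± 0.11, 2.9e-04), and at 54 h the log2 fold change was 0.61 ± 0.14 (3.3e-03). These differences were below the fold threshold of the test, with groups that did not overlap. At 66 h and 78 h the groups overlapped, with log2 fold changes of 0.05 ± 0.10 and -0.05 ± 0.09.

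**Figure D2:**
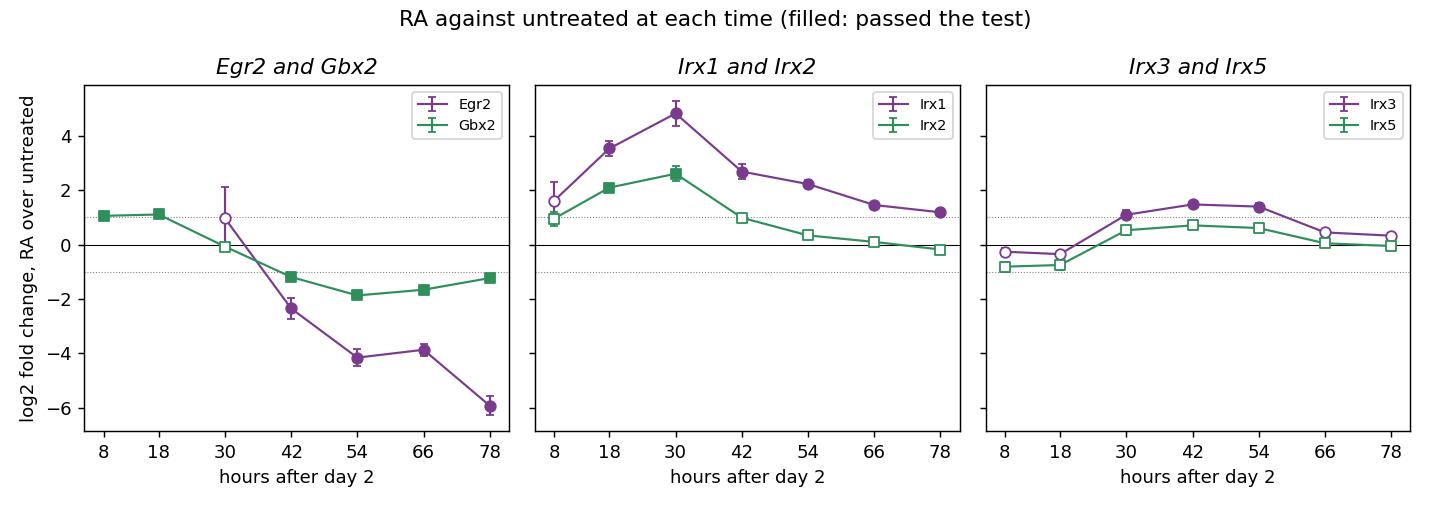
Log2 fold change of RA over untreated at each time, with its SE from edgeR as bars; filled symbols passed the test, open ones did not, and dotted lines mark a log2 fold change of 1 and -1. Egr2 and Gbx2 lie below -1 from 42 h on, Irx1 lies above 1 at every time and is filled from 18 h, and Irx5 stays between the dotted lines.

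Whether the RA effect changed between neighbouring times was tested as an interaction term, fitted on the 12 libraries of both times, which passed at an adjusted p under 0.01. Of 34 such tests of the 6 genes 5 passed, 3 of them between 18 h and 30 h. There the RA effect on Gbx2 decreased by 1.15 on the log2 scale (SE 0.11, adjusted p = 5.7e-05), while that on Irx3 increased by 1.48 (SE 0.21, 9.9e-04) and that on Irx5 by 1.32 (SE 0.24, 6.1e-03). Over all genes 3.1% passed in this comparison. Between 30 h and 42 h the effect on Gbx2 decreased by a further 1.11 (SE 0.17, adjusted p = 4.4e-03), with 1.1% of all genes passing. Between 54 h and 66 h that on Irx3 decreased by 0.95 (SE 0.16, adjusted p = 4.2e-03), with 1.41% of all genes passing. None of the 6 genes passed between 8 h and 18 h, between 42 h and 54 h or between 66 h and 78 h, where 0.341%, 0.491% and 0.118% of all genes did. At an unadjusted p under 0.05 there were 2, 3 and 2 of them, and DESeq2 passed none. The Irx5 call was lost in 8 of 12 fits that left out 1 library (adjusted p up to 0.027), the Gbx2 call between 30 h and 42 h in 7 of 12 (up to 0.018) and the Irx3 call between 54 h and 66 h in 3 of 12 (up to 0.014), with no change of sign. At 30 h 5 of the 6 libraries had low Y-linked genes, and at 18 h and 42 h none, so the change over time and that difference cannot be told apart in the tests that use 30 h. For Irx1 and Irx2 the change in RA effect between 30 h and 42 h was -2.14 ± 0.63 and -1.59 ± 0.34, with adjusted p-values of 0.09 and 0.025. Without RA 30 h replicate 2 the Irx2 value passed (-1.28, adjusted p = 2.5e-03), and so did that of Irx3 for the same pair of times (0.60, 7.4e-03).

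The ratio of the cluster neighbours, taken within each library and per kb of exon, showed how unequal the changes in a cluster were. Irx1 over Irx2 was 0.124 to 0.207 in the untreated 42 h libraries and 0.483 to 0.559 with RA, and at 78 h it was 0.152 to 0.187 and 0.377 to 0.478. With RA the ratio was highest at 30 h, at 0.704 to 0.803. It was higher with RA in every library from 18 h on, by 2.54 to 4.45 times in the means. Irx3 over Irx5 was 2.87 to 3.24 at 42 h without RA and 4.72 to 5.34 with RA, and 2.70 to 3.05 and 3.43 to 4.09 at 78 h. It did not overlap between arms at 8 h or from 30 h on. An exact permutation test of 3 libraries against 3, two-sided, cannot go below 0.1, which it gave at each time without overlap, so these ratios are a description.

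**Figure D3:**
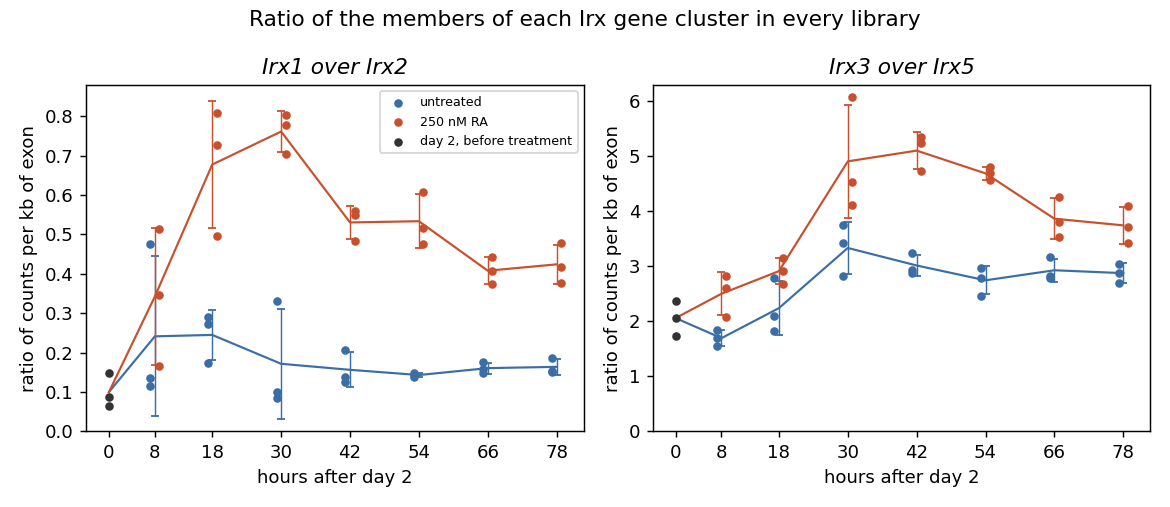
Ratio of Irx1 to Irx2 and of Irx3 to Irx5 in counts per kb of exon, for every library, against hours after day 2; lines join condition means and bars are the SD of 3 libraries. From 30 h on every RA library lies above every untreated library of its time in both panels, with Irx1 over Irx2 at 0.377 to 0.478 against 0.152 to 0.187 at 78 h.

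All 6 genes were higher than at day 2 at some time without RA, and the same test was run on each condition against the 3 day 2 libraries, which all 14 comparisons share. In untreated organoids 0, 0, 2, 6, 6, 6 and 5 of the 6 genes passed higher at the 7 successive times, where 0.409%, 3.2%, 11.9%, 13.2%, 15%, 18.2% and 20.3% of all genes tested did. At each of the first 2 times 3 genes had an unadjusted p under 0.05 in edgeR, in either direction, and DESeq2 passed none. With RA 1, 3, 4, 4, 4, 5 and 4 passed higher, where 2.65%, 14.5%, 15.9%, 19.8%, 20.6%, 21.7% and 22.9% of all genes did. Together 50 of 74 tests passed higher, and in the edgeR test none passed lower, with 3 lower at an unadjusted p under 0.05 and none passing in DESeq2, where 9.27% of all genes tested over the 14 comparisons passed lower in edgeR. By 78 h without RA Egr2 had risen by 6.93 ± 0.38 on the log2 scale, Irx1 by 5.15 ± 0.28, Irx2 by 4.52 ± 0.15, Irx3 by 3.24 ± 0.10 and Irx5 by 2.77 ± 0.11, with adjusted p-values of 6.9e-11 or lower. Gbx2 rose by 1.71 ± 0.09 at 54 h (7.7e-11) and differed from day 2 by 0.47 ± 0.10 at 78 h. The 78 h libraries belong to the later library series and 2 of the 3 day 2 libraries to the earlier one. Day 2 replicate 3, of the later series, read 0.169 CPM for Egr2, 0.127 for Irx1, 2.49 for Irx2, 9.83 for Irx3, 4.68 for Irx5 and 27.1 for Gbx2. Each untreated 78 h library was above it for all 6 genes. For Gbx2 untreated 78 h replicate 1 was barely above it, at 27.35 against 27.13 CPM.

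By the time at which each first passed against day 2, the genes fell into an order that differed between the arms. That time depends on the fold threshold and the count filter and is not the onset itself. Without RA Gbx2 and Irx3 first passed at 30 h (1.44 ± 0.08 and 1.10 ± 0.10), and Egr2, Irx1, Irx2 and Irx5 at 42 h (3.41 ± 0.32, 2.98 ± 0.53, 2.34 ± 0.22 and 1.34 ± 0.13). With RA Gbx2 first passed at 8 h (1.88 ± 0.15), Irx1 and Irx2 at 18 h (4.77 ± 0.34 and 2.10 ± 0.17), Irx3 at 30 h (2.20 ± 0.20), Irx5 at 42 h (2.04 ± 0.12) and Egr2 at 66 h. Some rises came earlier, inside the fold threshold. Gbx2 without RA was higher by 0.82 ± 0.08 at 8 h (adjusted p = 6.4e-06), and Irx5 with RA by 0.94 ± 0.14 at 30 h (1.3e-03). Egr2 had too few counts to be tested without RA at 8 h and 30 h and with RA up to and including 42 h. The same held for Irx1 without RA up to and including 30 h and with RA at 8 h. All 3 untreated libraries of 30 h had low Y-linked genes and all day 2 libraries high ones, so for Gbx2 and Irx3 at 30 h without RA the time and that difference cannot be told apart. Without day 2 replicate 1, which held 7 of the 12 day 2 counts of Irx1, the Irx1 values were 3.59 for untreated 42 h, 5.76 for untreated 78 h and 5.38 for RA 18 h. Gbx2 stopped passing with RA from 42 h on, and its value was below day 2 by 0.77 ± 0.09 on the log2 scale at 78 h (adjusted p = 7.5e-06), inside the fold threshold.

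Ranked by level, the 15 conditions did not separate cleanly for any gene. For Egr2 the order ran from 35.5 CPM in untreated 78 h to 0.158 CPM in RA 8 h, and 11 of the 14 neighbours in that order overlapped in their libraries. For Gbx2 it ran from 95.9 CPM in RA 18 h to 14 CPM in RA 78 h with 9 overlapping, and for Irx1 from 14.4 CPM in RA 78 h to 0.174 CPM at day 2 with 11. For Irx2 it ran from 48.3 CPM in untreated 78 h to 1.72 CPM in untreated 8 h with 9, for Irx3 from 125 CPM in RA 54 h to 8.56 CPM in RA 8 h with 10, and for Irx5 from 31.6 CPM in untreated 78 h to 3.71 CPM in RA 18 h with 8.

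Between genes, levels were compared per kb of exon. At day 2 Gbx2 led at 11.2 ± 1.11 CPM per kb, ahead of Irx3 at 3.14 ± 0.380, Irx5 at 1.53 ± 0.0786 and Irx2 at 0.653 ± 0.181, with Egr2 and Irx1 below 0.1 CPM per kb. At 78 h without RA the order was Irx3 (29.0 ± 3.35), Gbx2 (15.1 ± 2.34), Irx2 (14.7 ± 2.12), Egr2 (10.5 ± 4.40), Irx5 (10.1 ± 1.18) and Irx1 (2.39 ± 0.276), where Gbx2 and Irx2, and Egr2 and Irx5, lay within each other's SD. With RA it was Irx3 (36.6 ± 4.92), Irx2 (13.0 ± 0.393), Irx5 (9.76 ± 0.690), Gbx2 (6.43 ± 0.191), Irx1 (5.49 ± 0.537) and Egr2 (0.169 ± 0.0701).

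The courses of the Irx genes were alike over the 15 condition means, which share their libraries and the time axis. On log2(CPM + 1), Pearson's r was 0.96 for Irx3 and Irx5, 0.91 for Irx2 and Irx3, 0.90 for Irx2 and Irx5, 0.89 for Irx1 and Irx2, 0.85 for Irx1 and Irx3 and 0.75 for Irx1 and Irx5. Egr2 had r of 0.19 to 0.58 with the Irx genes over all conditions, where Spearman's rho was 0.44 to 0.81. Over day 2 and the 7 untreated conditions alone r was 0.97 to 1.0, and over day 2 and the RA conditions 0.62 to 0.74. Gbx2 had r of -0.60 to -0.41 with them over all conditions, 0.12 to 0.31 over day 2 and the untreated conditions and -0.82 to -0.43 over day 2 and the RA conditions. Among 14317 genes with a mean of at least 1 CPM, the 5 with the highest r to each gene were Rln1 (0.974), AV099323, Insl6, Angpt1 and Ptprt (0.923) for Egr2, and Pheta2 (0.94), Ints8, Spred1, Mkx and H2-Q6 (0.924) for Gbx2. For Irx1 they included Gm37818 (0.986), Foxl2os, the RA-binding protein gene Crabp2 and Ube2h, and for Irx2 they were Robo2 (0.992), Peg12, Col11a2, Gm4675 and Vstm2b (0.982). For Irx3 they were Cdh2 (0.99), which encodes N-cadherin, Ubtd2, Csf1, Smarce1 and Dgcr6 (0.984), and for Irx5 Mid1 (0.983), Efna5, Zfp113, Zbtb12 and Cxcr4 (0.98). These are descriptions of courses, and only 5 of the 30 genes stayed with Spearman's rho.

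Other genes of hindbrain segmentation were taken from a list of 21, and most of them passed higher with RA while Egr2 was still near the floor. Of the genes tested, 12 of 18 passed higher at 8 h, 16 of 20 at 18 h, 14 of 19 at 30 h, 11 of 20 at 42 h, 8 of 20 at 54 h and 6 of 20 at both 66 h and 78 h, and 0, 0, 0, 1, 4, 4 and 6 passed lower. At the first 3 times 2, 2 and 0 were lower in edgeR at an unadjusted p under 0.05, and DESeq2 passed 1, 1 and 0 lower. The median log2 fold change of the tested genes of the list was 3.01 at 8 h, 3.38 at 18 h, 2.99 at 30 h, 1.56 at 42 h, 0.46 at 54 h, 0.23 at 66 h and -0.10 at 78 h. Genes that passed early only through their RA libraries are among these, so the counts describe the list and no more. Hoxd4 had 0 counts in every library, which allows up to the floor given above.

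Some genes of the list stayed higher with RA and some turned from higher to lower, as Gbx2 did. Hoxb3 and Hoxb4, which mark the posterior hindbrain, and the zinc finger gene Zfp503 passed higher at all 7 times. Hoxb4 was at 49.9 ± 6.12 CPM with RA and 2.50 ± 0.332 CPM without at 78 h. Hoxb1, a gene of the mid-hindbrain, went from a log2 fold change of 5.19 at 18 h to -2.72 at 78 h. Its level was 169 ± 2.50 CPM with RA at 18 h and 8.65 ± 3.13 CPM at 78 h, where untreated organoids held 57.8 ± 2.35 CPM. Cyp26b1, which encodes an RA-degrading enzyme of the hindbrain, went from 5.62 to -4.71 over the same times, and Cyp26c1 from 1.93 to -4.14.

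**Figure D4:**
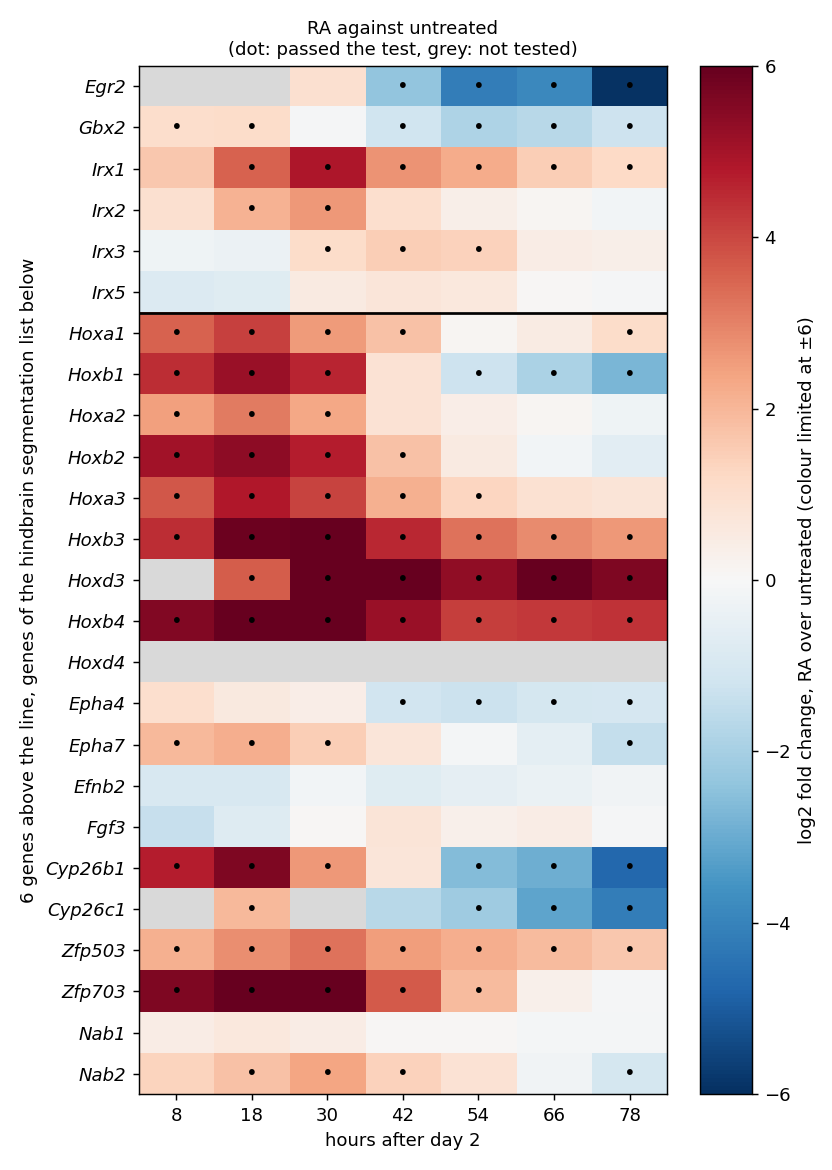
Log2 fold change of RA over untreated at 7 times for the 6 genes, above the line, and for genes of the hindbrain segmentation list, below it; red is higher with RA, blue lower, dots passed the test and grey cells were not tested. Egr2, Hoxb1, Cyp26b1, Cyp26c1 and Epha4 all passed lower with RA at 54 h, 66 h and 78 h.

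Epha4, a direct target of Egr2 in rhombomere sorting, passed lower with RA from 42 h on, with log2 fold changes of -1.15, -1.27, -1.04 and -1.01. At 8 h and 18 h, when Egr2 had too few counts to be tested, Epha4 was higher with RA, inside the fold threshold. Its log2 fold changes in edgeR were then 0.99 (adjusted p = 5.6e-04) and 0.58 (4.5e-05). Its level at 78 h was 187 ± 26.5 CPM without RA and 92.9 ± 5.98 CPM with RA, and it was already at 39.1 ± 2.03 CPM at day 2, when Egr2 was near the floor. Nab2, a corepressor that binds Egr proteins, was at 26.2 ± 5.55 CPM without RA and 12.6 ± 1.41 CPM with RA at 78 h, a log2 fold change of -1.06 that passed, after passing higher at 18 h (1.74), 30 h (2.38) and 42 h (1.37). Its paralogue Nab1 passed at no time in edgeR or DESeq2, with log2 fold changes of -0.12 to 0.65 and 2 higher at an unadjusted p under 0.05.

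For the midbrain and its border with the hindbrain, 13 genes were listed, and 25 of 79 tests passed higher with RA and 21 lower. By time, 0 of 11, 3 of 10, 1 of 10, 4 of 12, 4 of 12, 7 of 12 and 6 of 12 tested genes passed higher and 2, 2, 2, 4, 4, 4 and 3 lower, with medians of 0.17, 0.05, 0.56, 0.39, -0.06, 1.22 and 0.98. Otx2, which opposes Gbx2 at the border, passed lower at all 7 times, with log2 fold changes of -2.96 at 8 h and -3.17 at 78 h. Its level with RA was 14.4 ± 3.40 CPM at 18 h, when Gbx2 was at its peak, and 6.94 ± 4.61 CPM at 78 h, when Gbx2 was at its lowest, against 249 ± 13.4 and 63.7 ± 2.03 CPM without. Fgf8 and Fgf17, signals of the border, both passed lower at every time from 42 h (log2 fold changes of -1.57 and -1.65 at 78 h). Pax2 and En2, factors of the same region, were higher with RA at 78 h by 2.36 and 2.17, and Wnt1 was at 7.24 ± 0.615 CPM with RA and 0.230 ± 0.162 CPM without. The border genes therefore did not move as one group.

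Among close relatives of the 6 genes, Irx4, the third gene of the Irx1 cluster, was not tested at 8 h and passed higher at every time from 18 h (3.76) to 78 h (1.59), as Irx1 did, with 2.90 ± 1.04 CPM at 78 h. Irx6, of the other cluster, passed at 54 h alone, lower with RA (-2.45). Gbx1 passed higher from 18 h to 54 h (2.77, 2.80, 2.29 and 1.6) and not later, with 13.8 ± 2.21 CPM with RA and 13.3 ± 2.12 CPM without at 78 h, where Gbx2 was lower with RA. Egr1 passed at 54 h alone, higher with RA (1.08), Egr3 at none of the 4 times it could be tested, also at an unadjusted p under 0.05 or in DESeq2, and Egr4 had too few counts to be tested at any time. Over the 6 relatives 11 of 30 tests passed higher and 1 lower. Irx3os, Crnde, the transcript that starts 1505 bases from Irx5 in the opposite direction, and Fto, which adjoins Irx3, passed in none of 21 edgeR tests, with 4 higher and 3 lower at an unadjusted p under 0.05 and none passing in DESeq2.

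Lists of other cell types and states were read beside these results. A gene counts once in them at each time it was tested. Over all genes tested, 1.26% to 8.17% passed higher and 0.537% to 5.99% lower at the single times. Neuroepithelial genes (Sox1, Sox2, Pax6, Nes, Cdh2 and Hes5) passed higher in 13 of 41 tests and lower in none (7 at an unadjusted p under 0.05 in edgeR, none passing in DESeq2). Their sum was 643 to 890 CPM with RA at 30 h against 438 to 462 CPM without, the time at which Irx3 first passed higher, and 1048 to 1225 CPM against 910 to 1045 CPM at 78 h. Their part in the Irx3 result was not tested. Spinal cord genes passed higher in 24 of 52 tests and lower in 5, with a sum of 118 to 126 CPM with RA at 18 h against 9.24 to 12.1 CPM without. Genes of the naive pluripotency list passed higher in 9 of 63 tests, all of Tbx3 or Klf4, and lower in 6, all of Pou5f1. The list summed to 441 to 621 CPM with RA and 1032 to 1117 CPM without at 30 h. At 54 h the sums were 189 to 341 CPM and 735 to 813 CPM. The arms overlapped at 8 h and 78 h, with 352 to 582 CPM with RA and 471 to 563 CPM without at 78 h. The part of this difference in the results of the 6 genes was not tested. Mesoderm genes passed higher in 14 of 39 tests and lower in 8. They summed to 68.8 to 75.7 CPM with RA and 37.45 to 41.1 CPM without at 18 h, and overlapped between arms at 30 h. At 78 h the sums were 14.2 to 16.8 CPM and 11.4 to 13.4 CPM. Neural crest and Schwann genes passed higher in 16 of 54 tests and lower in 7, all of Foxd3. Immediate early genes passed higher in 10 of 66 and lower in none (11 at an unadjusted p under 0.05 in edgeR, 1 passing in DESeq2).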

How the data were processed

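RNA was sequenced from 45 libraries of 15 conditions (single-end reads, a directional kit). The authors trimmed reads with Trim Galore 0.5.0, removed abundant sequences with Bowtie2 2.3.4.1, aligned to GRCm38 with STAR, counted reads per gene of the Ensembl annotation with featureCounts of Subread 1.6.2, and deposited raw counts without normalization or pooling. Columns were matched to samples by the library number in the titles. Multiply aligned reads and the strand setting are not given in the sources used here, so overlapping antisense genes can share reads.

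Counts were tested with edgeR 4.0.16 in R 4.3.3 (TMM, filterByExpr with a minimum count of 10 and total of 15, glmQLFit and glmQLFTest), each comparison on its own libraries, with p-values adjusted over all genes tested. The SE is the log2 fold change divided by the square root of F. The code was tested on simulated data. The genes named are the 6 genes, the listed genes and, for each of the 6, the 5 genes of most similar course; some of them are not reported here. Genes and lists were chosen with earlier results of these data known. Positions and exons come from the GENCODE annotation of GRCm38, promoter windows from RefSeq.

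Replicate numbers come from the titles. Over 21 comparisons, same-numbered libraries deviated together (all 3 correlations over 0.1) only for RA against untreated at 66 h. Alternatives were RLE factors, library totals, DESeq2 1.42.0, no filter, one fit of all libraries, other thresholds, the replicate block, the earlier library series at 30 h and each library left out.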

Additional observations from a re-analysis of the deposited data

Results flagged for a closer look

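In 5 cases the RA effect on a gene differed between neighbouring times by the interaction test, and the log2 difference flagged each of them. Between 18 h and 30 h it was -1.15 for Gbx2, 1.48 for Irx3 and 1.32 for Irx5. The RA effect on Gbx2 thus changed in the opposite direction to that on Irx3 and Irx5 within the same 12 h. The log2 difference was -1.11 for Gbx2 between 30 h and 42 h, and -0.95 for Irx3 between 54 h and 66 h. The 30 h libraries, which enter 4 of these 5 tests, come from both library series, and 5 of the 6 had low Y-linked genes while no library of 18 h or 42 h did, so that difference and the change over time cannot be told apart. Without RA 30 h replicate 2 all 4 kept their sign, and their log2 differences were -1.19 (Gbx2), 1.24 (Irx3) and 1.26 (Irx5) between 18 h and 30 h and -1.099 (Gbx2) between 30 h and 42 h, each still with an adjusted p under 0.01. Over all 12 fits that left out 1 library, however, the Irx5 call was lost in 8. The Gbx2 call between 30 h and 42 h was lost in 7 of 12, and the Irx3 call between 54 h and 66 h in 3 of 12. Groups of 3 libraries were not tested for single outlying libraries.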

How the results depend on the processing

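The alternatives left the counts of 13 higher and 8 lower for RA against untreated within 12 to 15 and at 8, except that an adjusted p under 0.05 with no minimum fold gave 20 and 11. For the change from day 2 the 50 higher became 50 to 58, and the 0 lower became 3 at that looser threshold. For the RA effect between neighbouring times the 3 falls became 12 with no filter, 5 with one fit of all libraries and 5 at an adjusted p under 0.05, and the 2 rises became 1 to 3 with 1 library left out. For the hindbrain segmentation list the 15 lower became 26 at the looser threshold, and other counts of both lists were within 1.5 times. Of the 30 names of most similar course, 5 stayed with Spearman's rho, 16 over the 45 libraries, 22 with log2(CPM + 0.1) and 21 to 30 with 1 library left out. With the replicate number as a block the Gbx2 rise at 8 h did not pass (1.04, adjusted p = 0.015), Irx2 at 42 h passed (1.01, 1.1e-03), the Gbx2 change between 42 h and 54 h passed (-0.69, 6.7e-03), and no other call of the 6 genes changed. Irx2 at 42 h also passed with library totals (1.05), no filter (1.00), one fit of all libraries (1.00) and without any of 3 libraries (0.83 to 1.21 over all 6 such fits).

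Values that changed sign were all close to 0. Gbx2 at 30 h was 0.067 with library totals, Irx2 in untreated organoids at 30 h against day 2 was 0.019 with library totals, and Irx3 with RA at 8 h against day 2 was -0.00755 with DESeq2, -0.00880 with no filter and -0.031 with one fit of all libraries. With 1 library left out, Irx5 ran from -0.036 to 0.18 for RA at 66 h and from -0.14 to 0.030 at 78 h. Against day 2, Irx2 ran from -0.17 to 0.15 in untreated 18 h and from -0.21 to 0.10 in untreated 30 h, and Irx3 from -0.11 to 0.11 in RA 8 h. For changes in RA effect, between 8 h and 18 h Gbx2 ran from -0.10 to 0.15, Irx3 from -0.18 to 0.023 and Irx5 from -0.13 to 0.17. Between 42 h and 54 h Irx3 ran from -0.21 to 0.055 and Irx5 from -0.23 to 0.045, between 54 h and 66 h Egr2 from -0.057 to 0.55, and between 66 h and 78 h Irx5 from -0.22 to 0.00034. The causes were not tested. Depth limits Egr2 before 42 h and Irx1 without RA before 42 h, with 4 to 16 and 2 to 18 counts per untreated or day 2 library.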
